A study of Arabidopsis thaliana with 4 samples.

Results

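The genes described here encode calmodulins and calmodulin-like proteins of Arabidopsis thaliana. They were taken as every gene whose symbol is CAM or CML followed by a number, which gave 17 genes, together with TCH2 (CML24, AT5G37770) and TCH3 (CML12, AT2G41100). That makes 19 of the 25410 genes that a probe on the array could be matched to. The family is larger than these genes, and members that the gene table lists under other symbols were not counted. Expression was measured in whole seedlings of the Col-0 ecotype, 14 days old and grown in 8 h of light and 16 h of dark. The treatment was 300 mM NaCl on wetted filter paper for 2 h or 5 h, with 2 arrays per time, and untreated seedlings are written 0 h. On every array Cy5 carried RNA of treated seedlings and Cy3 carried 0 h RNA, and no array had the dyes swapped. The labels number the salt replicates but not the 0 h RNA, which was therefore taken as 1 control sample, although the series' design text speaks of 2 biological replicates. In the comparisons with 0 h, a dye bias of a gene cannot be told apart from an effect of salt. Mock-treated seedlings on wetted paper were not analysed here. Salt, handling during transfer and, unless sampling was matched, the time of day cannot be told apart.

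Calmodulin is a small protein that binds calcium ions in loops called EF hands, changes shape and then binds and switches other proteins such as kinases, calcium pumps, channels and transcription factors. Calmodulin-like proteins (CML) carry EF hands too but differ more in sequence, and in plants they form a large family that reads the calcium rises set off by cold, wounding, touch, pathogens and salt. TCH2, TCH3 and TCH4 are named for transcripts that increase after touch, and the gene table lists the name TCH1 as a synonym of the calmodulin gene CAM1.

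Of 43803 spots on each array between 70.5% and 72.2% lay well above background in salt-treated seedlings and between 71.6% and 72.4% in 0 h seedlings, and 0 were saturated. Median processed signals per array ranged from 342 to 463 in salt-treated seedlings and from 342 to 467 in 0 h seedlings. Log2 ratios correlated across genes, which are not independent replicates, at r = 0.982 between the 2 h arrays and 0.987 between the 5 h arrays. All 4 leaf, 5 root, 3 guard cell and 2 shoot meristem marker genes were well above background at 0 h on every array, as were 3 seed protein genes. The root markers CASP1, SHV2 (COBL9) and PRP3 stood at log2 ratios of −0.81, −1.04 and −1.59 at 2 h and −2.32, −2.27 and −3.00 at 5 h, and IRT1 at 3.45 and 2.68. The salt signal of EXPA7 was well above background on 2 of the 4 arrays, so this gene is given no ratio. The 4 leaf markers lay between −0.16 and 0.21 at 2 h and between −0.86 and 0.21 at 5 h. The guard cell markers lay between 0.02 and 0.93 at 2 h and between −0.05 and 0.79 at 5 h. Of the shoot meristem markers STM stood at −0.12 and −0.39 and KNAT1 at −1.13 and −1.30. Among the seed protein genes CRA1 stood at −7.07 and −5.29, while the salt signals of CRU3 and SESA1 were well above background on 3 and 2 of the 4 arrays and are given no ratio. Fewer cells of a type and less RNA per cell cannot be told apart in whole seedlings, and the part of such shifts in the results below was not tested.

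Of the 19 genes, 18 were measured, each well above background in both channels on every array. The exception was CAM8 (CML8, a gene linked to defence against bacteria), whose probe was not well above background in either channel on any array and has no fold here. Its signals lay between 5.53 and 7.48 in salt-treated seedlings and between 5.43 and 7.06 in 0 h seedlings. Signals are intensities after background subtraction and dye normalization, and are compared within an array and not between arrays or genes. A log2 ratio is that of the salt signal over the 0 h signal on the same array. Values after ± are limma's moderated standard errors with 2 arrays per time. A gene is said to have risen or fallen by at least 2-fold where limma's Benjamini-Hochberg adjusted p over all genes was under 0.05 and the log2 difference was 1 or more in size. The median of all genes lay at −0.15 at 2 h and −0.14 at 5 h on this scale and at 4.53e-05 and −0.00027 after normexp correction and loess, a shift of 0.15 and 0.14 that bears on small ratios. The labels do not say whether replicates came from separate cultures, so p-values measure the spread between these arrays, which may be technical.

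The first comparison asked which of these genes differed after 2 h of salt. Of the 18 measured genes, 6 rose and 1 fell by at least 2-fold, which is 38.9% of them. Over all 20410 genes tested, 11.9% rose, 7.59% fell and 19.5% did either. The genes that rose were CML38, CML37, TCH3, TCH2, CML23 and CAM2, from 57.7-fold to 3.1-fold, and CML43 fell 2.42-fold. The adjusted p of these 7 genes lay between 1.34e-05 and 0.00013 by limma's test. The median log2 ratio was 0.47 over the 18 genes and −0.15 over all genes. At the adjusted p alone, 11 genes were higher and 6 lower, against 32.1% and 50.8% of all genes. Of these 6, CAM4, CAM5 and CAM6 lay near the median of all genes and did not pass with each array centred.

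After 5 h, 6 of the 18 genes rose and 1 fell by at least 2-fold, again 38.9%. Over all 20412 genes tested, 15.5% rose, 15.3% fell and 30.8% did either, so the share of this family lay nearer to that of all genes than at 2 h. The genes that rose were CML37, CML38, TCH3, CML23, TCH2 and CML41, from 28.4-fold to 3.23-fold, and CML43 fell 5.29-fold (adjusted p from 9.41e-06 to 4.07e-05 by limma's test). The median log2 ratio was 0.09 over the 18 genes and −0.14 over all genes. At the adjusted p alone, 9 genes were higher and 7 lower, against 37.3% and 50% of all genes. Of these 7, CAM4 did not pass with each array centred, while CAM1 then passed as higher.

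**Figure D1:**
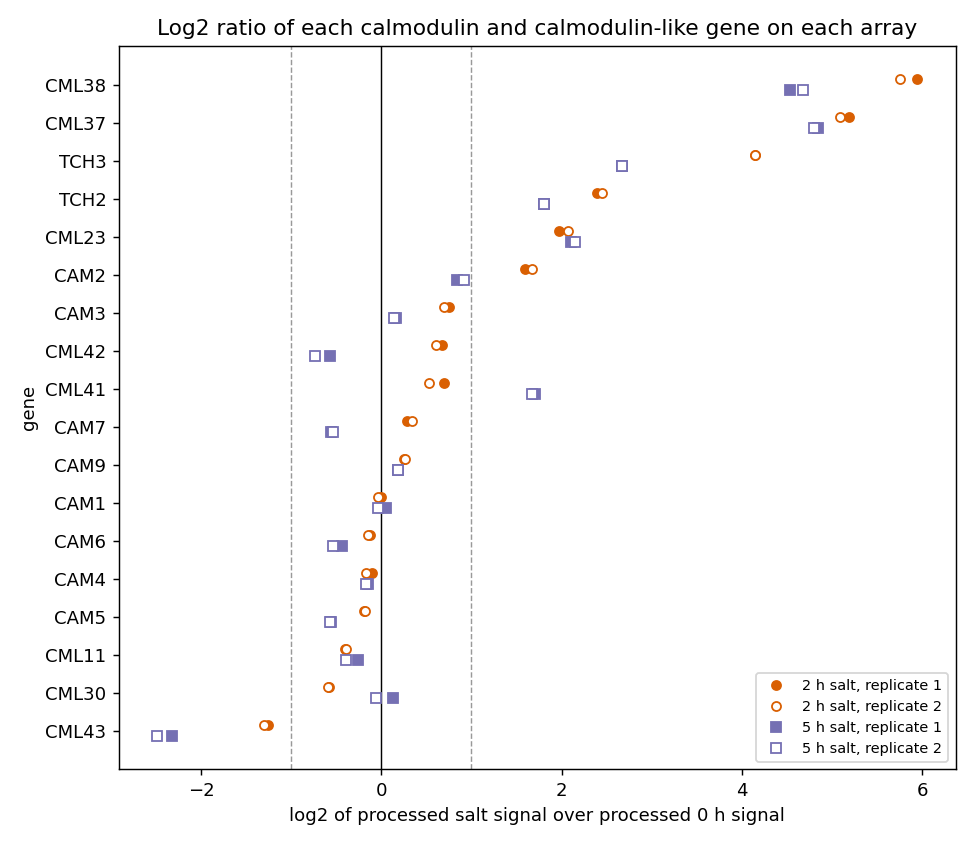
Log2 ratio of the salt signal over the 0 h signal (x axis) for each of the 18 measured genes (rows, ordered by the mean at 2 h), with 1 point per array and dashed lines at a 2-fold difference. CML38, CML37 and TCH3 lie furthest right at both times, CML43 lies furthest left, and the 2 arrays of a time lie close together beside the differences between genes.

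CML38 (AT1G76650), a calmodulin-like gene known for its response to low oxygen and wounding, held the largest ratio of the 18 genes at 2 h. Its signals were 17076 and 16237 in 2 h seedlings, against 277 and 301 in 0 h seedlings on the same arrays. In 5 h seedlings they were 9835 and 9115, against 423 and 355 in 0 h seedlings. The salt signal lay above the 0 h signal on each array. The gene stood 37th from the top of all genes at 2 h and 127th at 5 h. The log2 ratios were 5.85 ± 0.067 at 2 h and 4.61 ± 0.067 at 5 h (57.7-fold and 24.4-fold). With normexp and loess they were 5.58 and 4.25.

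CML37 (AT5G42380), which promotes jasmonate-linked defence and drought responses, was close behind CML38. It had signals of 5354 and 5554 in 2 h seedlings, against 146 and 163 in 0 h seedlings. In 5 h seedlings it had 6119 and 5872, against 212 and 210.2 in 0 h seedlings. Salt signals were thus far above 0 h on each array, at log2 ratios of 5.14 ± 0.039 and 4.83 ± 0.039 (35.3-fold and 28.4-fold), and CML37 held the largest ratio of the 18 genes at 5 h. A further probe of CML37 gave 5.12 and 4.84. With normexp and loess the ratios of CML37 were 4.64 and 4.29, a difference between settings that the ± values do not cover.

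TCH3 (CML12, AT2G41100) encodes a touch-induced calmodulin-like protein with more EF hands than calmodulin itself. Its signals were 38613 and 36440.5 in 2 h seedlings, against 2185 and 2059 in 0 h seedlings. At 5 h they were 17822 and 15717 in salt-treated seedlings, against 2799.6 and 2468 in 0 h seedlings. On each array the salt signal lay above 0 h, at log2 ratios of 4.14 ± 0.026 and 2.67 ± 0.026 (17.7-fold and 6.37-fold). A less bright probe of the gene gave 3.91 and 2.59.

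TCH2 (CML24, AT5G37770), linked to flowering time and to abscisic acid and ion responses, and CML23 (AT1G66400), its closest relative, rose less. TCH2 had signals of 5638 and 5874 in 2 h seedlings, against 1069.8 and 1078 in 0 h seedlings, and its log2 ratio was 2.42 ± 0.029 (5.36-fold). The 5 h signals were 5067 and 4719.9, against 1449 and 1348 in 0 h seedlings, with a log2 ratio of 1.81 ± 0.029 (3.5-fold). The 3 probes of TCH2 ranged from 2.35 to 2.45 at 2 h and from 1.66 to 1.81 at 5 h.

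CML23 had signals of 693 and 698 in 2 h seedlings, against 176 and 167 in 0 h seedlings. In 5 h seedlings it had 975 and 920.1, against 227 and 208 in 0 h seedlings. Its log2 ratios of 2.02 ± 0.037 and 2.13 ± 0.037 (4.06-fold and 4.37-fold) differed by 0.11 ± 0.052 between the times (adjusted p = 0.145 by limma's test). With normexp and loess the ratios of CML23 were 1.76 and 1.79.

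The gene TCH4 (XTH22), a touch-induced cell wall enzyme outside the calmodulin family, rose by 1.04 ± 0.029 at 2 h and 1.55 ± 0.029 at 5 h on the log2 scale. In these samples TCH2, TCH3 and TCH4 thus all passed the 2-fold call at both times. Of the calmodulins, CAM1 did not pass at either time and CAM2 passed at 2 h only. The name TCH1 was taken for CAM1 from the gene table alone. Whether it belongs to CAM1 or another calmodulin gene was not checked, so no statement is made about TCH1. No touched seedlings were analysed here.

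**Figure D2:**
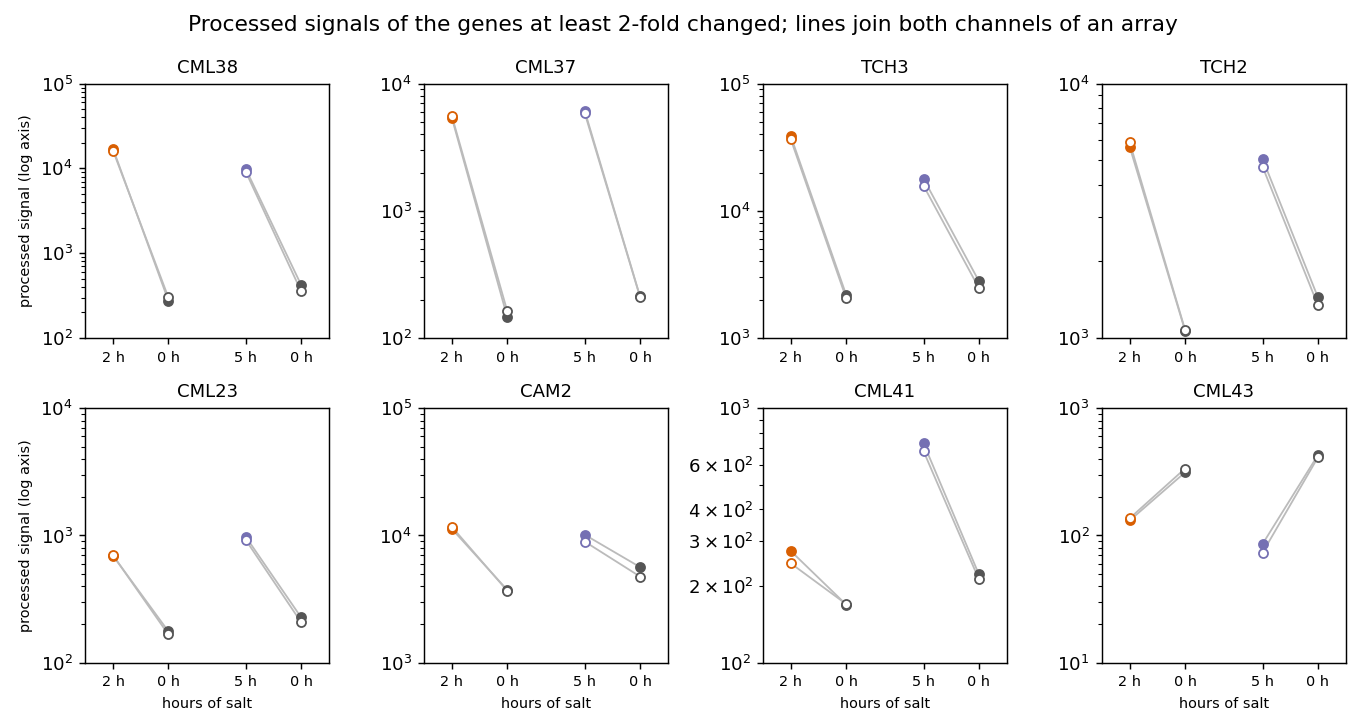
Processed signal (log axis) of the 8 genes that rose or fell by at least 2-fold in a comparison with 0 h, with salt-treated seedlings left of the 0 h seedlings of the same arrays, for 2 h and 5 h. Filled points are replicate 1, open points replicate 2, and lines join both channels of an array. The lines slope down to 0 h in 7 genes and up to 0 h in CML43.

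The calmodulins CAM1 to CAM7 encode nearly identical proteins. CAM2, CAM3 and CAM5 share 1 protein sequence, and so do CAM1 and CAM4. Of these 7 genes 1 (CAM2) rose by at least 2-fold at 2 h and 0 at 5 h, beside 11.9% and 15.5% of all genes. Their log2 ratios ranged from −0.19 to 1.63 (median −0.02) at 2 h and from −0.56 to 0.88 (median −0.15) at 5 h. The other 11 measured genes ranged from −1.28 to 5.85 (median 0.64) and from −2.40 to 4.83 (median 1.69). At the adjusted p of limma's test alone, 3 of the 7 were higher and 3 lower at 2 h, beside 32.1% and 50.8% of all genes. At 5 h 2 were higher and 4 lower, beside 37.3% and 50% of all genes. The 3 lower at 2 h were CAM4, CAM5 and CAM6, which lay 0.0083, −0.04 and 0.0094 from the median of all genes. None of them passed with each array centred, with the deposited values or with normexp and loess. At 5 h CAM4 did not pass in these settings either, while CAM1 passed as higher with centring and with normexp and loess.

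Genes for the same calmodulin differed in their ratios. CAM2 (AT2G41110) had signals of 11254 and 11671 in 2 h seedlings, against 3731 and 3672 in 0 h seedlings, and a log2 ratio of 1.63 ± 0.037 (3.1-fold). In 5 h seedlings CAM2 had 10132 and 8954, against 5640.04 and 4751 in 0 h seedlings, and the log2 ratio was 0.88 ± 0.037, short of 2-fold. With normexp and loess the 5 h value was 1.08 and passed the 2-fold line.

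CAM3 (AT3G56800) stood at 0.72 ± 0.031 at 2 h and 0.15 ± 0.031 at 5 h by its brightest probe, with signals of 34135 and 35485 in 2 h seedlings, against 20204 and 21957 in 0 h seedlings. Its 4 probes ranged from 0.65 to 1.22 at 2 h and from −0.06 to 0.33 at 5 h, so they differed in sign at 5 h. CAM5 (AT2G27030) stood at −0.19 ± 0.026 and −0.56 ± 0.026, with 2662 and 2721 in 2 h seedlings, against 3042 and 3089 in 0 h seedlings. With normexp and loess the values of CAM5 were −0.0001 and −0.37. The order CAM2, CAM3, CAM5 held on each of the 4 arrays. The files hold no probe sequences, so shared hybridization of these close copies was not tested and the single genes are uncertain.

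CAM1 (AT5G37780) and CAM4 (AT1G66410) had ratios near 1. CAM1 had signals of 11014 and 9989 in 2 h seedlings, against 11074 and 10277 in 0 h seedlings. Its log2 ratios of −0.02 ± 0.034 and 0.01 ± 0.034 did not pass (adjusted p = 0.539 at 2 h and 0.798 at 5 h by limma's test). The 2 h value of CAM1 turned to 0.04 with normexp and loess and to 0.09 with each array centred. For CAM4 the ratios were −0.14 ± 0.032 and −0.15 ± 0.032. Set against the median of all genes they come to 0.0083 and −0.02.

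CAM6 (AT5G21274) and CAM7 (AT3G43810, also described as a DNA-binding factor of light responses) were below 0 h at 5 h. CAM6 had ratios of −0.14 ± 0.036 at 2 h and −0.48 ± 0.036 at 5 h, which became 0.01 and −0.23 with normexp and loess. CAM7 had signals of 16234 and 15246 in 2 h seedlings, against 13279 and 12028 in 0 h seedlings (0.32 ± 0.03). In 5 h seedlings CAM7 had 12049 and 11491, against 17775 and 16681 in 0 h seedlings (−0.55 ± 0.03, or −0.31 with normexp and loess). The ratio of CAM7 was thus above 0 on both 2 h arrays and below 0 on both 5 h arrays, at less than 2-fold each way.

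CAM9 (CML9, AT3G51920), whose mutants have been studied for abscisic acid and salt responses, differed little. It had signals of 31356 and 32256 in 2 h seedlings, against 26404 and 26786 in 0 h seedlings. The 5 h signals were 41156 and 37602, against 36231 and 33012 in 0 h seedlings. Every array put salt above 0 h, at mean log2 ratios of 0.26 ± 0.026 at 2 h and 0.19 ± 0.026 at 5 h, or 1.2-fold and 1.14-fold.

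Among the remaining calmodulin-like genes, CML41 and CML43 passed the 2-fold line in opposite directions. CML41 (AT3G50770), a protein of the channels between plant cells that acts in immunity, had signals of 275 and 246 in 2 h seedlings, against 169 and 169.99 in 0 h seedlings. The 5 h signals of CML41 were 727 and 677, against 222 and 212 in 0 h seedlings. Its log2 ratio was 0.62 ± 0.051 at 2 h, short of 2-fold, and 1.69 ± 0.051 at 5 h (3.23-fold).

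CML43 (AT5G44460), a calmodulin-like gene studied in defence, was the 1 gene of the 18 that fell by at least 2-fold in the comparisons with 0 h. It had signals of 131 and 136 in 2 h seedlings, against 313 and 336 in 0 h seedlings. At 5 h it had 85.6 and 73.2, against 428 and 410.2 in 0 h seedlings. Salt signals lay below 0 h on all 4 arrays, at log2 ratios of −1.28 ± 0.051 and −2.40 ± 0.051 (2.42-fold and 5.29-fold lower). With normexp and an offset the ratios of this dim gene were −0.77 and −1.35, and the 2 h value lost the 2-fold call.

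CML42 (AT4G20780), which acts in leaf hair branching and restrains jasmonate-linked defence, had signals of 443 and 436 in 2 h seedlings, against 278 and 285 in 0 h seedlings. At 5 h it had 269 and 226, against 399 and 378 in 0 h seedlings. The 2 h arrays thus lay above 0 h and the 5 h arrays below it, at log2 ratios of 0.64 ± 0.053 and −0.65 ± 0.053 (−0.32 at 5 h with normexp and loess).

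CML30 (AT2G15680), described as a mitochondrial protein, had 415 and 409.5 in 2 h seedlings, against 621 and 615 in 0 h seedlings. At 5 h it had 903 and 822, against 825 and 853 in 0 h seedlings. The 2 h ratio was −0.58 ± 0.054 (−0.32 with normexp and loess), while the 5 h arrays fell on either side of 0 h (0.04 ± 0.054, adjusted p = 0.529 by limma's test). CML11 (AT3G22930) was dim, with 79.4 and 74.5 in 2 h seedlings against 105 and 98 in 0 h seedlings, and stood at −0.40 ± 0.042 and −0.32 ± 0.042 (−0.15 and −0.18 with normexp and loess).

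The comparison of 5 h with 2 h asked which genes moved between these times. In it the 0 h RNA drops out if 1 sample was shared, as does the dye bias of a gene. Of the 18 genes 1 was higher and 4 lower by at least 2-fold at 5 h, against 6.01% and 6.58% of the 20410 genes tested. At the adjusted p alone 2 were higher and 11 lower, against 32.6% and 36.5% of all genes. The median difference was −0.36 over the 18 genes and −0.03 over all genes.

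TCH3, CML42, CML38 and CML43 were lower at 5 h than at 2 h by log2 differences of −1.47 ± 0.037, −1.29 ± 0.074, −1.24 ± 0.095 and −1.13 ± 0.072. CML41 was higher by 1.08 ± 0.072. The adjusted p of these 5 genes lay between 0.00027 and 0.0012 by limma's test. With normexp and loess TCH3 and CML38 kept the 2-fold call, at −1.41 and −1.33. CML42, CML43 and CML41 lost it there, at −0.96, −0.58 and 0.79, and CML41 also lost it without replicate 2 of the 2 h arrays (0.99).

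Less than 2-fold lower at 5 h were CAM7 (−0.87 ± 0.042), CAM2 (−0.75 ± 0.052), TCH2 (−0.61 ± 0.04) and CAM3 (−0.57 ± 0.044). CAM5, CAM6 and CML37 followed at −0.38, −0.34 and −0.32, and CML30 was higher by 0.62 ± 0.076. CML23, CML11, CAM1, CAM4 and CAM9 did not pass, with differences between −0.07 and 0.11. CML37 and CML38, which stood near each other in the comparisons with 0 h, differed here: the difference of CML38 was at least 2-fold and that of CML37 was 1.24-fold, although the gap between both genes was not itself tested.

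**Figure D3:**
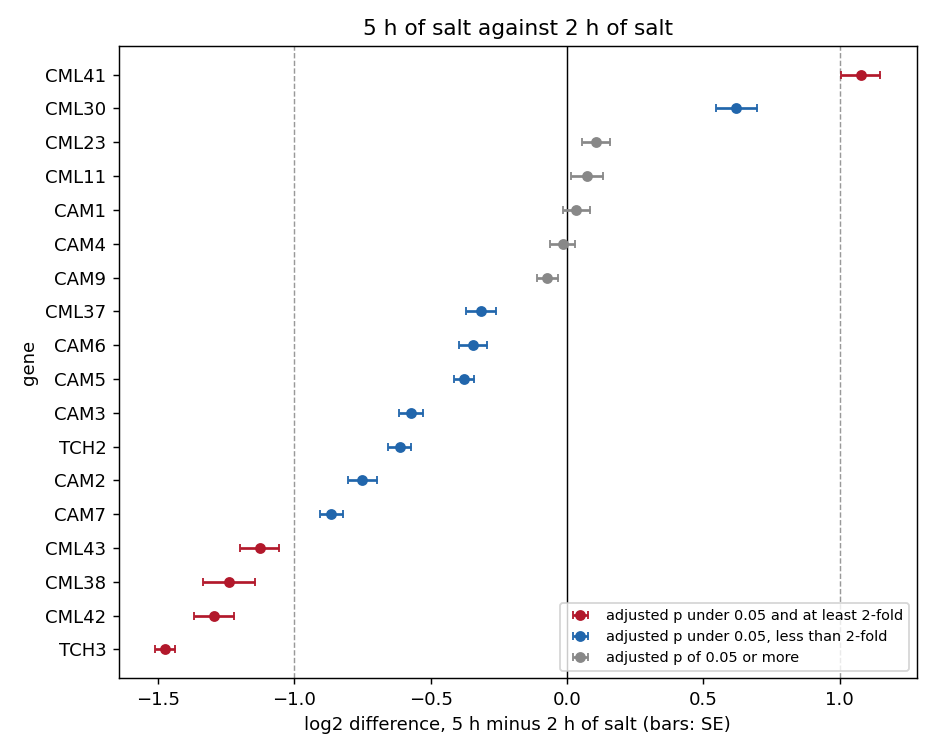
Log2 difference between 5 h and 2 h of salt (x axis, 5 h minus 2 h) for each of the 18 measured genes, with bars of 1 standard error and dashed lines at a 2-fold difference. CML41 lies highest at 1.08 and TCH3 lowest at −1.47, and 13 of the 18 genes passed the adjusted p, 11 of them lower at 5 h. Over all genes 32.6% were higher and 36.5% lower at the adjusted p alone.

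Position in the genome, which the choice of genes did not use, placed several of them side by side in the order of the gene table. CML23 is next to CAM4, TCH2 is next to CAM1, and TCH3 is separated from CAM2 by 1 annotated locus. In each of these 3 pairs the calmodulin-like gene had the higher log2 ratio at both times. These are the ratios already given above, so the pairs add no further test. CML23 stood at 2.02 and 2.13 beside −0.14 and −0.15 for CAM4, and TCH2 at 2.42 and 1.81 beside −0.02 and 0.01 for CAM1. TCH3 stood at 4.14 and 2.67 beside 1.63 and 0.88 for CAM2.

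CML38 is next to AT1G76640, which carries the name CML39 as a synonym and so lay outside the rule. AT1G76640 had signals of 3074 and 3137 in 2 h seedlings, against 26.2 and 38.1 in 0 h seedlings, and 1319 and 1252 in 5 h seedlings, against 26.2 and 33.6 in 0 h seedlings. Its log2 ratios were 6.62 ± 0.17 and 5.44 ± 0.17, above those of CML38, and it was lower at 5 h than at 2 h by −1.18 ± 0.24. The 0 h signal on 1 of the 5 h arrays was not well above background. With 0 h signals this dim, and no alternative processing run for this gene, its place above CML38 is uncertain. The gene table gives CML39 also as a synonym of CML37.

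**Figure D4:**
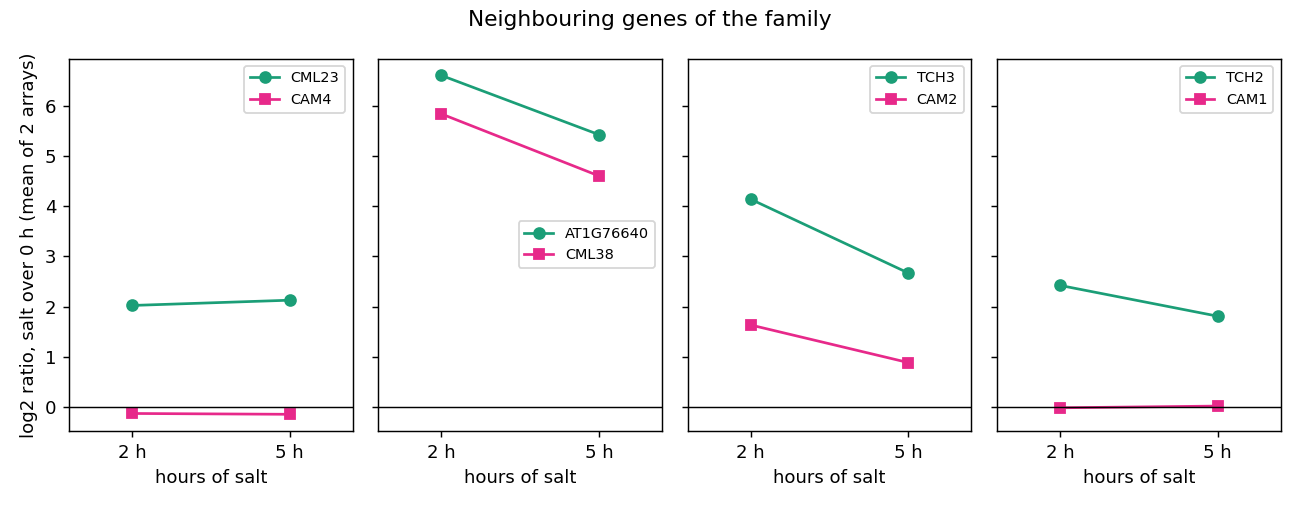
Log2 ratio of salt over 0 h (y axis, mean of 2 arrays) at 2 h and 5 h for 4 pairs of neighbouring genes, 1 pair a panel. CML23, TCH3 and TCH2 lie above CAM4, CAM2 and CAM1, while AT1G76640 and CML38 lie close together and are lower at 5 h.

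Families with members that bind calmodulin, and glutamate receptor-like channels, were described by lists. Their counts stand beside 11.9% of all genes that rose and 7.59% that fell at 2 h, and 15.5% and 15.3% at 5 h. CAMTA factors are transcription factors that bind calmodulin, and 1 of 6 (16.7%) rose by at least 2-fold at each time, near the share of all genes. It was AT1G67310, at 1.44 ± 0.033 and 1.23 ± 0.033. The list's median log2 ratio was 0.45 at 2 h and 0.65 at 5 h. In the CBP60 family of calmodulin-binding regulators 2 of 7 measured genes (28.6%) rose by at least 2-fold at each time, against 11.9% of all genes at 2 h and 15.5% at 5 h. They were SARD1 (2.87 ± 0.098 and 2.17 ± 0.098) and CBP60G (2.66 ± 0.05 and 2.51 ± 0.05), both regulators of salicylic acid synthesis, SARD1 being a family member not known to bind calmodulin.

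Autoinhibited calcium pumps (ACA) move calcium out of the cytosol and are switched on by calmodulin. Of 9 measured pump genes 3 (33.3%) rose by at least 2-fold at 2 h and 3 at 5 h, against 11.9% and 15.5% of all genes. AT3G22910 (ACA13) stood at 2.44 ± 0.037 and 3.89 ± 0.037, ACA1 at 2.25 ± 0.035 and 1.09 ± 0.035, and AT3G63380 (ACA12) at 1.71 ± 0.19 and 2.36 ± 0.19. ACA9, named after its values were seen, was lower at 5 h, where its salt signal was not well above background, by at least 2.23-fold. Between 5 h and 2 h ACA13 was higher by 1.45 ± 0.053 and ACA1 lower by −1.15 ± 0.05.

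Cyclic nucleotide-gated channels (CNGC) are calcium-permeable channels that calmodulin binds. Of 17 measured genes 2 (11.8%) rose by at least 2-fold at each time, near or below the 11.9% of all genes at 2 h and 15.5% at 5 h. They were CNGC19 (2.25 ± 0.027 and 2.09 ± 0.027) and CNGC10 (1.72 ± 0.055 and 1.60 ± 0.055). CNGC12 fell by 1.27 ± 0.031 at 2 h and stood at −0.03 ± 0.031 at 5 h. The lower call of CNGC18 at 2 h, a gene named after its values were seen, rested on a salt signal not well above background. The median was 0.11 at 2 h and −0.03 at 5 h.

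Among glutamate receptor-like channels GLR2.7 rose (1.56 ± 0.05 and 1.85 ± 0.05) and GLR3.6, which carries wound signals between leaves, fell (−1.44 ± 0.027 and −1.56 ± 0.027). GLR1.3 rose by 1.26 ± 0.06 at 5 h. Of 11 measured genes 1 rose and 2 fell by at least 2-fold at 2 h, against 11.9% and 7.59% of all genes. At 5 h 2 rose and 3 fell, against 15.5% and 15.3%. The call of 1 gene at each time rested on a salt signal not well above background.

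IQ67-domain proteins (IQD) bind calmodulin, and several are found at microtubules. Of 23 measured genes 3 rose and 2 fell by at least 2-fold at 2 h, against 11.9% and 7.59% of all genes. At 5 h 3 rose and 9 fell, against 15.5% and 15.3%. A group not well above background stood behind 2 of these calls at 2 h and 3 at 5 h. IQD22 rose by 2.94 ± 0.036 and 2.74 ± 0.036 and IQD23 by 1.41 ± 0.026 at 2 h and 1.19 ± 0.026 at 5 h. IQD20 fell by 1.28 ± 0.11 at 2 h, and IQD6 and IQD19 fell by 2.17 ± 0.032 and 1.98 ± 0.028 at 5 h. The median was −0.32 at 2 h and −0.53 at 5 h, beside −0.15 and −0.14 over all genes.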

How the data were processed

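The authors' deposited array files hold processed and median intensity values for Cy3 and Cy5 and a log10 ratio per spot, made with Feature Extraction 11.5.1.1 per the file headers (9.3.2.1 per the submitters' processing notes). The deposited series table holds log2 values that followed the log2 processed ratio of each array (r of 0.9998 to 0.9999, column medians from 0.0533 to 0.18, scaling not stated). All 4 arrays lay on 1 slide with 1 scan time. Arrays were grouped by the Cy5 source in the labels.

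Flags of 0 or 1 per spot, also deposited by the authors, mark outliers, saturation and spots well above background. The log2 ratio of the processed signals was fitted with limma 3.58.1 in R 4.3.3, with 1 mean per time, 2 residual degrees of freedom and prior degrees of freedom of 1.84. Testing a ratio against 0 leaves out the spread of the control. Control spots and 14 to 19 outlier spots per array were left out. Probes had to exceed background clearly in Cy3 on 2 or more arrays, or in Cy5 on both replicates of a time. This left 20412 genes, 3 of them with a missing value on an array. Each gene was represented by its brightest such probe. Of 43603 probes 34348 matched 1 gene through RefSeq transcripts of TAIR10.1, used for names and gene order only. Bounds on a fold used the lowest signal well above background after Aquantile scaling, and are open to dye bias.

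All genes of the family that changed by at least 2-fold were named, with TCH2, TCH3 and CAM1 to CAM7. Of the other lists up to 3 called genes measured on both sides were named per time. CAM8, CAM9, CML11, CML30, ACA9, CNGC18 and AT1G76640 were added after their values were seen. Members and lists were chosen with earlier results of these data known. The code of the fit was run on simulated data with far fewer changed genes and a more even spread between genes than here. That run does not show how the fit behaves on data like these. Alternatives covered normexp (offset 50) with loess, array centring, the deposited values, filters, probe averaging, a variance trend, the replicate number as a block and leaving out each array. The number of arrays limits the precision.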

Additional observations from a re-analysis of the deposited data

Results flagged for a closer look

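Between 5 h and 2 h, 13 of the 18 measured genes differed by limma's test of the difference itself (adjusted p under 0.05). Of these 2 were higher and 11 lower at 5 h, beside 32.6% and 36.5% of all genes. Most of all genes tested passed too, so the count of 13 does not set the family apart. At least 2-fold lower at 5 h on the log2 scale were TCH3 (−1.47), CML42 (−1.29), CML38 (−1.24) and CML43 (−1.13), and CML41 was higher (1.08). By less than 2-fold, CAM7 (−0.87), CAM2 (−0.75), TCH2 (−0.61), CAM3 (−0.57), CAM5 (−0.38), CAM6 (−0.34) and CML37 (−0.32) were lower and CML30 was higher (0.62). CAM7 and CML42 had ratios of opposite sign, above 0 on both 2 h arrays and below 0 on both 5 h arrays. For TCH3 and CML38 the 5 h ratio was a smaller rise, for CML43 a larger fall and for CML41 a larger rise. With 2 arrays per time no array could be tested as standing apart.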

How the results depend on the processing

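Of 648 values of the 18 measured genes under 12 alternatives, 631 kept their direction and their side of the 2-fold call, 5 lost the call, 1 gained it and 11 changed sign. Many of these log2 values could not move. For a gene with 1 probe, the filters, probe averaging, variance trend and replicate block left the log2 ratio unchanged. In the comparisons with 0 h, so did leaving out an array of the other time. The 631 is therefore no measure of how robust the values are. With normexp and loess CAM2 gained the call at 5 h (1.08), and CML43 at 2 h (−0.77) and CML41 (0.79), CML42 (−0.96) and CML43 (−0.58) between the times lost it. CML41 also lost it between the times without replicate 2 of the 2 h arrays (0.99). Of the values that changed sign, that of CAM6 alone had passed the adjusted p. Normexp with loess turned CAM6 (0.0105) and CAM1 (0.0435) at 2 h, and CAM4 (0.035), CAM9 (0.0252) and CML11 (−0.0372) between the times. CAM1 at 2 h also turned with centring (0.0922) and the deposited values (0.0931). Leaving out 1 replicate at a time, CAM1 ranged from −0.0312 to 0.0509 and CML30 from −0.0534 to 0.13 at 5 h, lowest without replicate 1 of the 5 h arrays. Between the times CAM1 ranged from −0.00673 (without the same array) to 0.0754, and CAM4 from −0.0526 to 0.0198 (without replicate 1 of the 2 h arrays). The count of called genes of the family was 7 at 2 h, 7 at 5 h and 5 between the times, and 6, 8 and 2 with normexp and loess. Over all genes that setting gave 2466, 4259 and 1585 calls, against 3987, 6297 and 2568, and the share of calls that were higher was 80.7% at 2 h and 65.1% at 5 h, against 61.1% and 50.3%. The cause was not tested. Without 1 replicate at a time the family's counts ranged from 7 to 7, 7 to 7 and 4 to 5, and those of all genes from 3934 to 3986, 6226 to 6303 and 2548 to 2640, the lone array being assumed to vary like the others. Whether arrays with the same replicate number belong together cannot be told from 2 pairs (correlation of deviations 0.094). The replicate block gave 7, 7 and 5 calls in the family and 4000, 6302 and 2584 over all genes. A slide or scan block was not run, since all arrays shared 1 slide and 1 scan time. Signal over background limits CAM8, which has no fold here, and the dim genes CML11 and CML43.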
